A study of Homo sapiens with 4 samples.

Results

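The genes described here are the 10 that encode the core of the KMT2 histone methyltransferase complexes. They are the enzyme genes *KMT2A*, *KMT2B*, *KMT2C*, *KMT2D*, *SETD1A*, and *SETD1B*, and *WDR5*, *ASH2L*, *RBBP5*, and *DPY30*, which encode the subunits that all of these enzymes share. The list was fixed by gene name, and all 10 were found among the 20033 protein-coding genes of GENCODE release 44 on hg38. For each gene, CUT&RUN peaks were taken that overlapped the gene record plus 10 kb on each side, called its window below. A peak was placed at a promoter when its centre lay from 1000 bp upstream to 100 bp downstream of any annotated transcript start of that gene. In CUT&RUN, a nuclease tethered to an antibody frees the DNA near the bound protein, and a peak is a stretch where the released fragments pile up over the local background. The cells were HSSY II, a human synovial sarcoma (SS) line that carries the SS18::SSX1 fusion. They were kept for 4 days with DMSO as the control or with 2.5 μM MS67, a proteolysis-targeting chimera that degrades WDR5. Each of the 2 treatments was profiled with 1 library for WDR5 and 1 for SS18::SSX, each from 1000000 cells with 50000 murine NIH-3T3 cells added as a spike-in. All values come from a single cultured line, treatments could not be compared over replicates, and no p-values were calculated.

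KMT2 enzymes place methyl groups on lysine 4 of histone H3 (H3K4), the mark found at active promoters and enhancers. SETD1A and SETD1B are best known for H3K4 trimethylation at promoters across the genome, KMT2A and KMT2B for H3K4 methylation at developmental genes, including the HOX genes in the case of KMT2A, and KMT2C and KMT2D for H3K4 monomethylation at enhancers. WDR5 is a β-propeller scaffold that holds the catalytic end of the enzyme, RBBP5 and ASH2L form the pair that stimulates catalysis, and DPY30 binds ASH2L. SS18::SSX is the fusion oncoprotein of SS and sits within SWI/SNF chromatin-remodeling complexes. The comparison asked where WDR5 and the fusion were bound at the genes of WDR5’s own complex, and which of these peaks were listed after WDR5 degradation.

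The peak sequences that the results below turn on are printed here in hg38 on the strand of the member gene, 5′ to 3′, so that each can be read beside its values. Letters in capitals match 1 of 5 short motifs on either strand. The motifs were CCAAT (bound by NFY), GGGCGG (bound by SP and KLF factors), CACGTG (the E-box of MYC), CCGGAA (bound by ETS factors), and GCGCATGCG (bound by NRF1), and none of the 5 contains another. The upstream *KMT2A* WDR5 peak, the promoter peaks of *KMT2D* and *SETD1A*, and the stretch of the *DPY30* promoter peak upstream of its start are shown as the promoter sites of WDR5 in DMSO-treated cells. The *KMT2B* peak is shown because it was listed with both treatments. The *SETD1B* intron site is shown because both proteins had peaks there, and the stretch printed is from the WDR5 peak with MS67. In it, the first GGGCGG match and the E-box lie before the start of the SS18::SSX peak at 121811586. A short stretch of the peak between *U2AF1L4* and *PSENEN* is shown because it held an NRF1 match, and the site downstream of *WDR5* because it held 3 E-boxes. Stretches in untranslated exons were left out.
*KMT2A* promoter, chr11:118435456-118435666, plus strand: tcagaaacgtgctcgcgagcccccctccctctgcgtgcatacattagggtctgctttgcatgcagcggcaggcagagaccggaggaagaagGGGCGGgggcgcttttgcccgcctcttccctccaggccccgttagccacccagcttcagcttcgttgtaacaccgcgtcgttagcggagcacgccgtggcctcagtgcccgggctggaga
*KMT2B* promoter, WDR5 peak with MS67, chr19:35718860-35719057, plus strand: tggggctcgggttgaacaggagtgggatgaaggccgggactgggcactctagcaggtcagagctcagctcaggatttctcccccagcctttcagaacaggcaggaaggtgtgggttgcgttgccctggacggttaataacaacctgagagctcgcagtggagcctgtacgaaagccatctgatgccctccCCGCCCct
*KMT2D* promoter, chr12:49061120-49061296, minus strand: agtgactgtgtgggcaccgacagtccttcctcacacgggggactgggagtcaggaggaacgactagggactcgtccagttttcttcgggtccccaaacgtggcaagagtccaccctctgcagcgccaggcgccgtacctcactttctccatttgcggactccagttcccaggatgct
*SETD1A* promoter, chr16:30957007-30957169, plus strand: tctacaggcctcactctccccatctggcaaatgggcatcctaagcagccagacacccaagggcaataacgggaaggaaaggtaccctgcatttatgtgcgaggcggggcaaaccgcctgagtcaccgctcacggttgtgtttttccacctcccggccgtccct
*DPY30* promoter, chr2:32039806-32040105, minus strand: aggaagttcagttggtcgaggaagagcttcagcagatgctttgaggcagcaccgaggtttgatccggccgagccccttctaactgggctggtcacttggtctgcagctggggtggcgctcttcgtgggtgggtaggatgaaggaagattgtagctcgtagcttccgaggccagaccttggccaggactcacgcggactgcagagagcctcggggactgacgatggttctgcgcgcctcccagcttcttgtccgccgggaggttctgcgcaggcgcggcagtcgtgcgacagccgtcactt
*SETD1B* intron, chr12:121811528-121811827, plus strand: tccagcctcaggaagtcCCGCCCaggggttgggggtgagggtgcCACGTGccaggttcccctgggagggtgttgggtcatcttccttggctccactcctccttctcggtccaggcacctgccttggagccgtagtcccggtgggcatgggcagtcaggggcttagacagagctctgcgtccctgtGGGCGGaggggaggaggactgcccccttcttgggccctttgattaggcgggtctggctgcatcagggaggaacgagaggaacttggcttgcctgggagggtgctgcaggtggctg
Downstream of *KMT2B* at *U2AF1L4* and *PSENEN*, SS18::SSX peak, chr19:35745557-35745599, plus strand: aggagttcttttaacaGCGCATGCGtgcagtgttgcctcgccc
Downstream of *WDR5*, chr9:134165328-134165627, plus strand: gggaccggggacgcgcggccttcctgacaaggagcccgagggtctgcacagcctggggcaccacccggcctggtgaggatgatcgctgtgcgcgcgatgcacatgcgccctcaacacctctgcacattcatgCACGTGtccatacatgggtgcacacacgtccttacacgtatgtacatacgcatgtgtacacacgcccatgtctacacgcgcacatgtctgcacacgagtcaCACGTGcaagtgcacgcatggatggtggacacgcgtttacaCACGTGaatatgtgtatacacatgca

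The whole lists held 35605 WDR5 peaks with DMSO and 14123 with MS67, and 15141 SS18::SSX peaks with DMSO and 1175 with MS67. The fold, −log10 p, and −log10 q of a peak are the authors’ MACS2 values, and fold and p together give the whole number of fragments at the summit and its local background. The lowest background of a list, taken as its genome-wide coverage, was 0.368 fragments per bp for WDR5 with DMSO and 0.168 with MS67, and 0.541 and 0.737 for SS18::SSX. The WDR5 library with MS67 thus had 0.458 times the coverage of its DMSO control, and the SS18::SSX library with MS67 had 1.36 times. Peaks were called per library against a local background, and whether a control library entered it is not given. The recovered summits were whole fragments with no spike-in scaling, so treatment and depth cannot be told apart in a count of WDR5 peaks. The weakest summits of the WDR5 lists held 4 fragments in the control and 3 under MS67, and those of the SS18::SSX lists held 5 and 7. Peak positions do not measure expression, so neither the identity of the cells nor the loss of WDR5 protein could be checked from these lists.

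With DMSO, every one of the 10 genes had a WDR5 peak in its window, and 6 had one at a promoter. Over all protein-coding genes, 75% had a WDR5 peak in the window and 43% at a promoter, so the share at promoters was near that of genes at large in a list of this size. The median length of the members was 37229 bp, against 27471 bp for all genes, and a longer window can hold more peaks. With MS67, 9 of the 10 genes had a WDR5 peak in the window and 3 at a promoter, against 54.1% and 27.7% of all protein-coding genes. The direction of the promoter counts rested on the length of the lists, as 1 gene had a WDR5 promoter peak with DMSO against 3 with MS67 when the DMSO list was reduced to its top 14123 peaks. With −log10 q above 3 and fold above 6, the counts were 1 (*DPY30*) and 0. SS18::SSX peaks lay in the windows of 4 genes with DMSO and of 0 with MS67, against 31.8% and 3.63% of all genes. At promoters, SS18::SSX was listed for 1 gene with DMSO and 0 with MS67, against 13.4% and 0.724%.

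**Figure D1:**
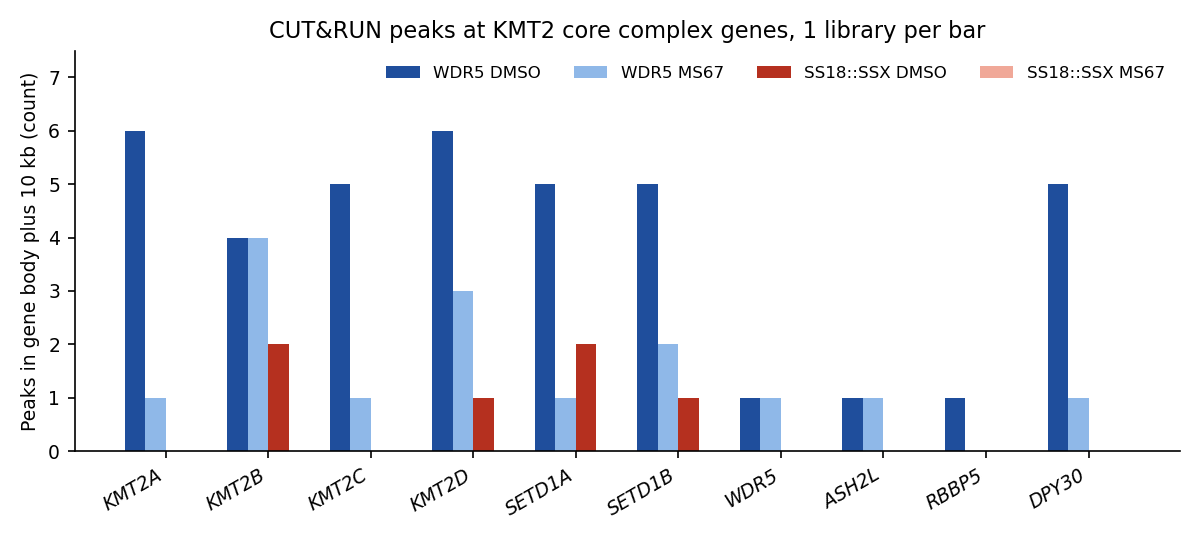
Number of CUT&RUN peaks that overlap each gene record plus 10 kb on each side, in each of the 4 libraries. WDR5 peaks went from 39 with DMSO to 15 with MS67 over the 10 genes, *KMT2B* had 4 in each, and the 6 SS18::SSX peaks of the DMSO library fell in 4 genes.

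The windows held 39 WDR5 peaks with DMSO. Of these, 6 were at a member promoter, 15 inside a member gene away from its promoter, and 18 upstream or downstream of it. Neighbouring genes accounted for some of them, as 8 of the 39 were at the promoter of another gene and not of the member. The median −log10 q was 4.06, against 4.37 over the whole list, and the median fold was 4.30 against 4.61. The WDR5 peaks in these windows were therefore of ordinary strength for the library. The local background under them ran from 1.00 to 24.5 times the genome-wide coverage, with a median of 5.43 against 4.91 for all WDR5 peaks, and the highest was at *RHOF* upstream of *SETD1B*.

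*KMT2A* (ENSG00000118058, also known as *MLL1*, which is rearranged in some leukemias) spans 118436456 to 118526832 on chromosome 11, plus strand. Its window held 6 WDR5 peaks with DMSO, and 3 of them surrounded the start site. These 3 lay 1591 bp upstream, 931 bp upstream, and 2153 bp downstream of the canonical start, with 15, 15, and 16 fragments at the summit over local backgrounds of 2.99, 3.12, and 3.30. The middle peak was the one at the promoter (118435456 to 118435666, fold 3.88, −log10 q of 3.73). It was also at the promoter of ENSG00000255384. The other 3 lay beyond the 3′ end, at *TTC36* and *TMEM25*, and 2 of them were at promoters of *TMEM25* and the antisense gene *TTC36-AS1*. With MS67, no peak was listed at the *KMT2A* start. The single WDR5 peak with MS67 was at *TMEM25* from 118531426 to 118531750, with 7 fragments, 46 bp beyond the nearest DMSO peak.

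*KMT2B* (ENSG00000272333) spans 35717973 to 35738880 on chromosome 19, plus strand, and had the WDR5 peak with the highest −log10 q of all the windows. That peak was upstream of the start and over an untranslated exon of *ZBTB32*, a zinc finger gene (35716420 to 35717024, fold 8.12, 31 fragments, −log10 q of 16.5). A weaker peak 1026 bp downstream of the canonical start lay in an intron, 821 bp upstream of an internal start of the same gene, and so counted as a promoter peak (14 fragments, −log10 q of 3.43). *KMT2B* kept both with MS67, at 11 fragments each and −log10 q of 4.40 and 4.42. The same was true of the peak at the promoter of *IGFLR1* beyond the 3′ end, which had 25 fragments with DMSO and 14 with MS67. *KMT2B* was the enzyme gene whose number of WDR5 peaks was the same with both treatments, because a peak at *PSENEN* was listed with DMSO only and one at the promoter of *LIN37* with MS67 only.

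*KMT2C* (ENSG00000055609) spans 152134922 to 152436644 on chromosome 7, minus strand, and at 301723 bp it was the longest member. It had 5 WDR5 peaks with DMSO, all in introns and none at a promoter. A pair lay 1327 and 1753 bp downstream of the canonical start with 9 fragments each (−log10 q of 2.05 and 1.99), and a stronger pair lay 23809 and 24499 bp downstream. The highest of these had 13 fragments over a background of 0.943 (152411377 to 152411630, fold 7.21, −log10 q of 7.91). With MS67, none of the 5 was listed, and the sole peak was an intronic one of 4 fragments (152364450 to 152364604, −log10 q of 2.51), 32692 bp from the nearest DMSO peak. Parts of *KMT2C* have near-identical copies elsewhere in the genome, and reads from them can be placed ambiguously, so peaks inside this gene are less certain than the others.

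*KMT2D* (ENSG00000167548) spans 49018975 to 49060794 on chromosome 12, minus strand. It had 6 WDR5 peaks with DMSO, and the 3 that belonged to *KMT2D* itself were listed with DMSO only. These were the promoter peak 414 bp upstream of the start (15 fragments, −log10 q of 2.73) and 2 intronic peaks 2691 and 3788 bp downstream (24 and 17 fragments, −log10 q of 8.12 and 3.71). The remaining DMSO peaks were at neighbours, 1 at the promoters of *PRKAG1* and *DDN-AS1* beyond the 3′ end and 2 at *RHEBL1*, a small GTPase gene upstream. The 3 WDR5 peaks with MS67 were all at these neighbours, with 5 to 7 fragments.

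*SETD1A* (ENSG00000099381) spans 30957294 to 30984664 on chromosome 16, plus strand. Its own WDR5 peaks with DMSO were at the promoter, 666 bp upstream of the canonical start (10 fragments, −log10 q of 2.77), and 1147 bp downstream (12 fragments, −log10 q of 4.91). Neither was listed with MS67. The summit of the promoter peak lay in an exon of ENSG00000275263. Of the 3 others, 2 were at *ORAI3* upstream and 1 at *HSD3B7* downstream, and the one at the *ORAI3* promoter was the only WDR5 peak of the window with MS67, at 8 fragments against 15 with DMSO.

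*SETD1B* (ENSG00000139718) spans 121804009 to 121832656 on chromosome 12, plus strand, and had no WDR5 promoter peak in either library. With DMSO, a peak of 19 fragments lay 2342 bp downstream of its start (121805886 to 121806815, −log10 q of 5.20). A stronger one of 24 fragments lay in an intron 7737 bp downstream (121811394 to 121812097, −log10 q of 11.4). The intronic site was also listed with MS67 at 11 fragments (−log10 q of 4.15). It was the sole WDR5 peak inside an enzyme gene and away from every start site of that gene that was listed with both treatments. A peak in an intron of *HPD*, beyond the 3′ end, likewise appeared with DMSO (24 fragments) and MS67 (12 fragments).

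Among the shared subunits, *WDR5* itself (ENSG00000196363, chromosome 9, 134135365 to 134159968, plus strand) had no WDR5 peak at its promoter with DMSO. The single DMSO peak of its window was intergenic, beyond the 3′ end (134165099 to 134165703, 10 fragments, −log10 q of 5.30), and was not listed with MS67. With MS67, a peak at the *WDR5* promoter was listed (134135213 to 134135561, 7 fragments over a background of 0.722, −log10 q of 2.65), also over an exon of the divergent transcript *WDR5-DT*. *WDR5* was thus the member with a promoter peak in the MS67 library only. Scaled by the coverages, 7 fragments correspond to 15.3 at the depth of the DMSO library, in which no peak was listed within 29538 bp.

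*ASH2L* (ENSG00000129691, chromosome 8, 38105493 to 38144076, plus strand) had 1 WDR5 peak in each library, at different places. The DMSO peak lay 731 bp upstream of the start (11 fragments, −log10 q of 3.07), and the MS67 peak lay 516 bp downstream, in an untranslated exon (10 fragments, −log10 q of 4.00). They were 850 bp apart. The centre of the MS67 peak was 106 bp downstream of the nearest transcript start and so fell just outside the promoter. *RBBP5* (ENSG00000117222, chromosome 1, 205086142 to 205122015, minus strand) had 1 weak DMSO peak, 1054 bp upstream of its nearest start and also just outside the promoter (8 fragments, −log10 q of 1.98), and none with MS67. Just inside the promoter were the *KMT2A* peak, 895 bp upstream of the nearest start, and the SS18::SSX peak of *SETD1A*, 86 bp downstream.

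*DPY30* (ENSG00000162961, chromosome 2, 31867809 to 32039805, minus strand) had the promoter peak with the highest fold and −log10 q of the members. This peak was also at the promoter of ENSG00000288937, with its summit in an exon of that gene. With DMSO the peak spanned the start site over 926 bp (32039372 to 32040297, fold 9.78, 23 fragments, −log10 q of 15.5), and 1.40% of the 10160 WDR5 peaks at protein-coding promoters had a higher −log10 q. The other 5 member promoter peaks were in the lower part of that ranking, with 69.8 to 87.8% of promoter peaks above them. With MS67 the *DPY30* promoter peak was listed at 8 fragments (32039741 to 32040070, −log10 q of 4.03). The other 4 DMSO peaks in this window lay in or at *MEMO1*, a neighbour over which the *DPY30* gene record extends, and none of these was listed with MS67. The canonical *DPY30* transcript spans 15901 bp of the 171997 bp of the record.

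WDR5 peaks at these genes mostly stood beside the canonical start site and not on it. Distances are from that start only, and the *SETD1A* promoter peak lay 206 bp upstream of another annotated start of the gene. Of 15 WDR5 peaks centred within 3 kb of a canonical start with DMSO, 2 were within 500 bp, those of *DPY30* and *KMT2D*. Of the 9 genes with such a peak, 7 had none within 500 bp of the start, whereas this held for 43.6% of the 12085 protein-coding genes with a WDR5 peak within 3 kb. The median distance was 1147 bp for the members and 671 bp for all protein-coding genes. With 9 genes this is a description, and no test was run on it. The limits of 3 kb and 500 bp were not varied, and the related gene lists were not profiled in this way.

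**Figure D2:**
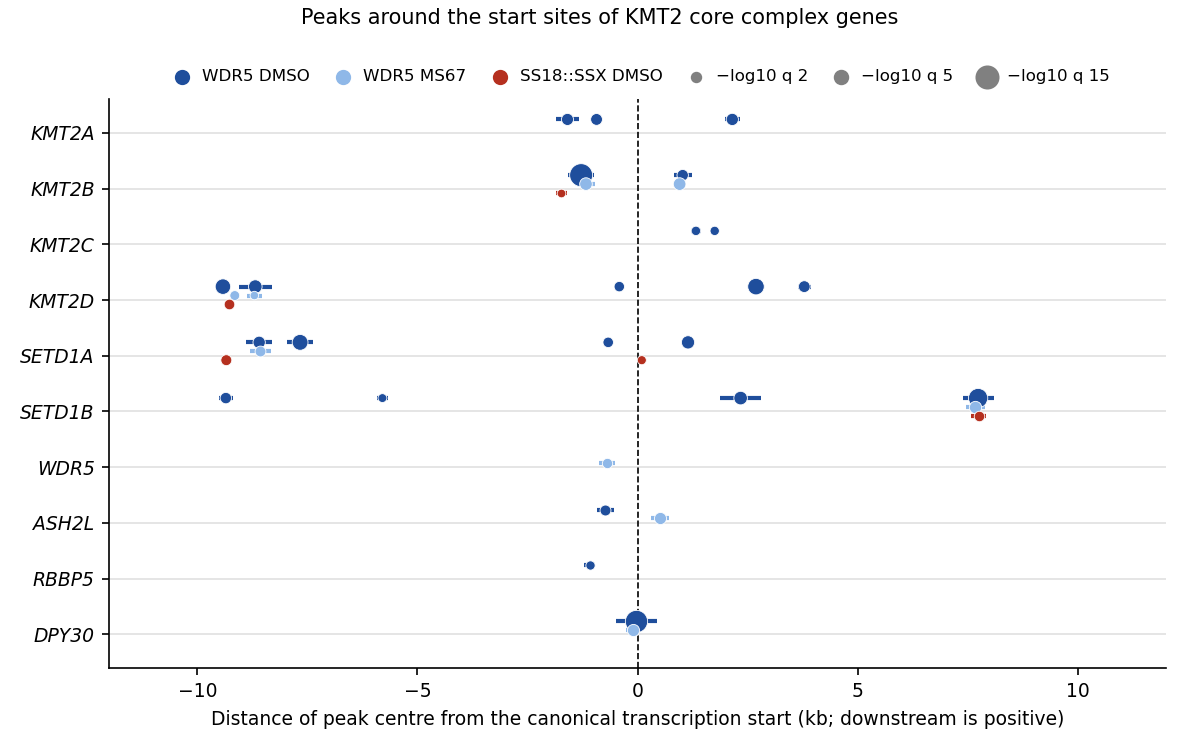
Centres (points, sized by −log10 q) and widths (bars) of peaks within 12 kb of the canonical transcription start of each gene, in kb with downstream positive. The *DPY30* peak sits on the start, whereas WDR5 peaks of *KMT2A*, *KMT2B*, *KMT2C*, *SETD1A*, *SETD1B*, *ASH2L*, and *RBBP5* lie more than 500 bp to a side, and no SS18::SSX peak was listed with MS67.

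MS67 treatment was compared with DMSO by overlap of at least 1 bp. Of the 39 WDR5 peaks with DMSO, 30 had no overlapping peak with MS67 (76.9%, 95% CI 60.7 to 88.9, exact Clopper-Pearson). In the whole list this share was 75%, so the members lost WDR5 peaks about as often as peaks at large. Such intervals cover counting error only and treat the peaks as independent, although several were neighbours in the same window. With peaks within 1 kb merged, 22 of 31 had no overlapping MS67 peak. Of the 6 genes with a promoter peak, 2 (*KMT2B* and *DPY30*) also had one with MS67, against 49.9% of all protein-coding genes with one. In the other direction, 5 of the 15 MS67 peaks overlapped no DMSO peak, against 35.6% of the list. These were the peaks at *TMEM25*, *LIN37*, *WDR5*, and *ASH2L* and in the *KMT2C* intron, and 3 of them had no DMSO peak within 1 kb.

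Depth was set beside these losses by scaling each DMSO summit and its background to the MS67 coverage and asking whether it would still pass the lowest −log10 p of the MS67 list, 4.06. Of the 39 member peaks, 21 passed, against 56.8% of the list. The 18 that did not pass included 5 of the 6 member promoter peaks, all but that of *DPY30*. For those 5, a missing MS67 peak cannot be told apart from the lower depth, and the *KMT2B* promoter peak was listed nonetheless. Of the 21 that passed, 8 overlapped an MS67 peak, against 33.7% of such peaks in the whole list. The other 13 had no overlapping MS67 peak. They included the intronic *KMT2C* pair, the *KMT2D* intron peak of 24 fragments, and the *SETD1A* and *SETD1B* peaks downstream of the start. The *MEMO1* promoter peak and the intergenic peak beyond *WDR5* were also among them. The scaling took no account of counting error, and some passed narrowly, such as the *KMT2C* peak 23809 bp downstream at 4.23. Whether these 13 were lost beyond the effect of depth was therefore not tested.

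At the sites listed with both treatments, no difference between the heights of the WDR5 summits over their own library went beyond counting error. The intervals were wide, so this does not show that the heights were equal. There were 10 such pairs, from 9 DMSO peaks, as the peak at *RHEBL1* overlapped 2 MS67 peaks. The summits of a pair were 10 to 795 bp apart, 214 bp at the *SETD1B* intron site and 213 bp at the *KMT2B* promoter. A ratio therefore compares 2 maxima and not always the same position. The fragments over genome-wide coverage at *DPY30* were 62.6 with DMSO and 47.5 with MS67, a ratio of 0.759 (95% CI 0.293 to 1.76, exact binomial). At the *SETD1B* intron site they were 65.3 with either treatment, a ratio of 1.000 (95% CI 0.442 to 2.12). At the *KMT2B* promoter the ratio was 1.71 (95% CI 0.704 to 4.06). The ratios ran from 0.759 to 1.71 with a median of 1.00, each interval included 1, and over all 9293 overlapping pairs of the lists the median was 1.26. Only sites that passed in both lists enter these ratios, and they are relative to each library and not to the spike-in, so they do not measure the amount of WDR5 on chromatin.

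**Figure D3:**
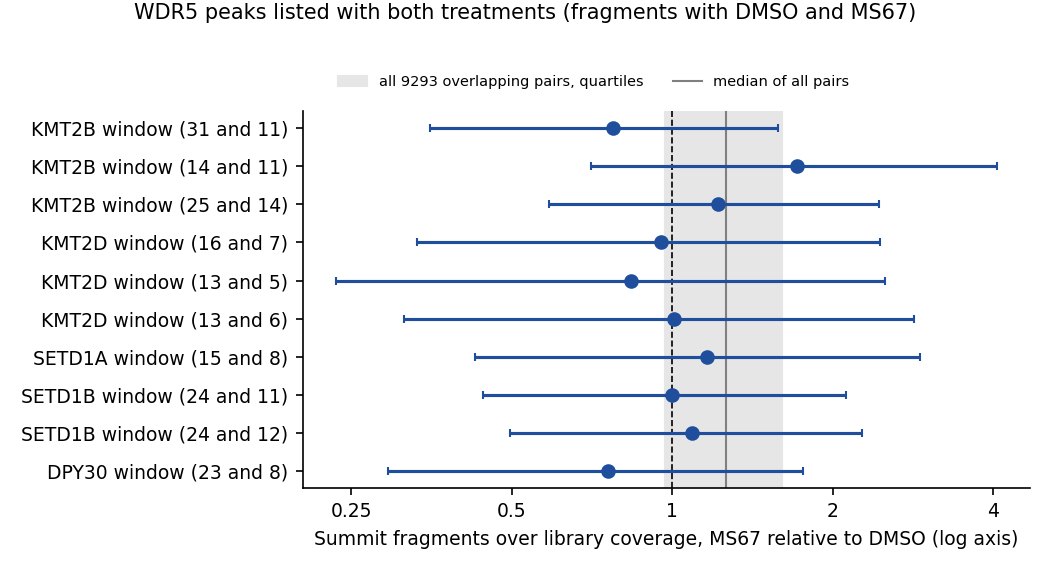
WDR5 summit fragments over the genome-wide coverage of the library, MS67 relative to DMSO on a log axis, for the 10 overlapping pairs of peaks in member windows, with the fragments in each library. Bars are 95% exact binomial intervals for counting error, all of which include 1, and the band gives the quartiles of all 9293 pairs, 0.970 to 1.61.

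SS18::SSX peaks with DMSO were listed in windows of members about as often as in those of all genes (4 of 10 against 31.8%). The 6 peaks lay in the windows of *KMT2B*, *KMT2D*, *SETD1A*, and *SETD1B*. Their summits held 7 to 10 fragments, against a list median of 16, and their −log10 q ran from 1.61 to 3.09, below the list median of 3.68. Their median fold of 4.11 was near the 3.99 of the whole list. The sole peak at a member promoter was that of *SETD1A*, centred 97 bp downstream of the canonical start in an untranslated exon (30957783 to 30957918, fold 3.90, 7 fragments, −log10 q of 1.85). It was also at the promoter of ENSG00000275263. The sole peak deep inside a member was in the *SETD1B* intron (121811586 to 121811929, fold 4.27, 10 fragments, −log10 q of 2.77). The remaining 4 lay upstream or downstream of *KMT2B*, *KMT2D*, and *SETD1A*, and 3 of these were at promoters of neighbours, namely *U2AF1L4* and *PSENEN*, *RHEBL1*, and *ORAI3*.

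Each SS18::SSX peak stood close to WDR5. With DMSO, 2 of the 6 overlapped a WDR5 peak, against 33.7% of all SS18::SSX peaks. They were the *SETD1B* intron peak, which lay wholly within the WDR5 peak over its 344 bp, and the *RHEBL1* peak, with 99 bp shared. The other 4 were 30, 380, 614, and 623 bp from the nearest WDR5 peak. All 6 thus had a WDR5 peak within 1 kb, against 54.9% of the list. The windows of these genes held 4 to 6 WDR5 peaks with DMSO, against a median of 2 over all protein-coding genes. Nearness beyond this density was not tested. With −log10 q above 3 and fold above 3, 1 SS18::SSX peak was left and 0 overlapped WDR5. At the *SETD1A* start, SS18::SSX lay between the WDR5 peaks upstream and downstream.

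With MS67, none of the 6 SS18::SSX peaks was listed, and none had an SS18::SSX peak within 1 kb. Over the whole list, 94.2% of SS18::SSX peaks with DMSO had no overlapping peak with MS67, so 6 of 6 was near the share for all peaks. The MS67 library had 1.36 times the coverage of the control. Scaled to it, the 6 summits would hold 9.54 to 13.6 fragments, and all 6 would pass the lowest −log10 p of the MS67 list. Scaling to a higher coverage raises −log10 p, so this was no test of loss. The whole SS18::SSX list with MS67 had a median local background of 12.2 times coverage, against 5.72 with DMSO. Its median fold was 3.09 against 3.99. Of its peaks within 3 kb of a canonical protein-coding start, 8.63% were within 500 bp, against 35.7% with DMSO. Whether treatment or library quality left the 6 sites unlisted was not tested. With 50 kb on each side of the genes in place of 10 kb, 20 SS18::SSX peaks were listed with DMSO and 0 with MS67, where 6.68% of all protein-coding genes had an MS67 peak in a window of that kind. At the *SETD1B* intron site, a WDR5 peak was listed with MS67 although an SS18::SSX peak was not. WDR5 peaks were also listed with MS67 at *RHEBL1*. The WDR5 peak that overlapped SS18::SSX there with DMSO (49070066 to 49070357) had no overlapping MS67 peak, only one within 1 kb.

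Genes of related complexes were counted in the same way. Among 12 genes of KMT2 accessory subunits, such as menin, 4 had a WDR5 promoter peak with DMSO and 7 with MS67. Among 14 genes of the NSL and ATAC acetyltransferase complexes, which also contain WDR5, 6 had one with DMSO and 7 with MS67. Among 5 H3K4 demethylase genes the counts were 1 and 2, and among 28 SWI/SNF subunit genes they were 15 and 7. Over all protein-coding genes, the shares were 43% with DMSO and 27.7% with MS67. The differences between these lists were not tested, and their counts rest on lists of unequal length. SS18::SSX promoter peaks with DMSO were at 13.4% of all protein-coding genes and at 0 of the NSL, ATAC, and demethylase genes. They were found at 2 of the 12 accessory subunit genes, *WDR82* (−log10 q of 3.46) and *PSIP1* (1.83), and at 6 of the 28 SWI/SNF genes. The highest of the 6 were at *ACTL6B* (6.02), *BCL7B* (4.50), *ACTL6A* (3.02), *SMARCA2* (2.85), and *SMARCE1* (2.27). None of these genes had an SS18::SSX promoter peak with MS67, where 0.724% of all protein-coding genes had one. With so few genes per list, no order among the lists was read.

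**Figure D4:**
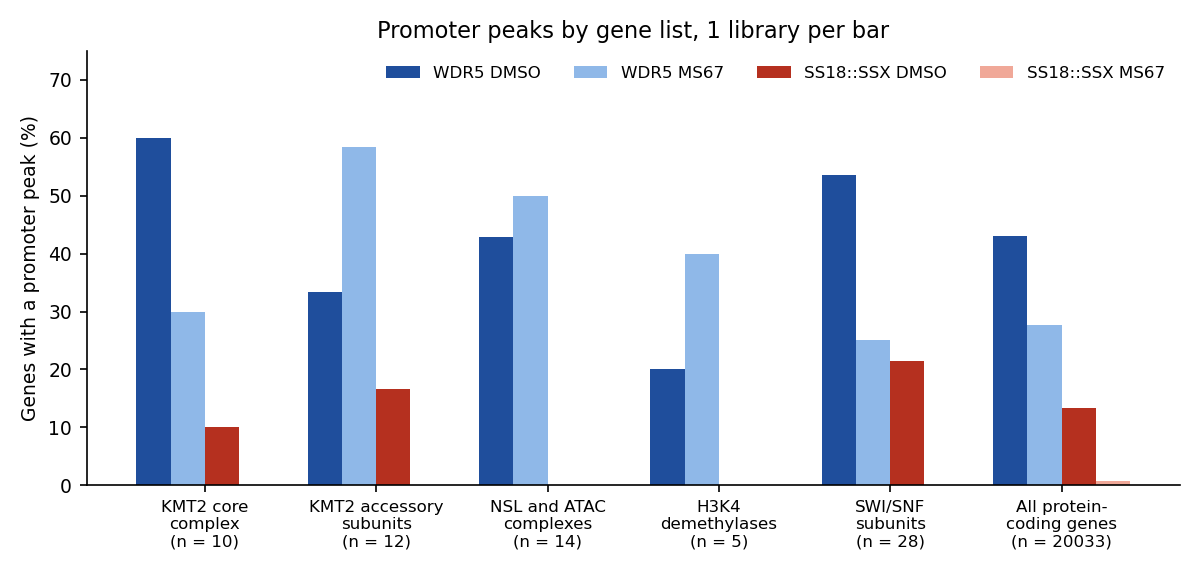
Percent of genes with a promoter peak in each of the 4 libraries, for the core complex genes, 4 related lists, and all protein-coding genes, with the number of genes under each. Of the core complex genes, 60% had a WDR5 promoter peak with DMSO and 30% with MS67, against 43% and 27.7% of all genes.

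The promoter sequences differed widely in base composition. RefSeq promoters (GRCh38.p14, 250 bp before to 50 bp after the start) were matched for 7 members, that is all but *SETD1B*, *ASH2L*, and *DPY30*. Their GC content had a median of 65.0%, against 62.7% for 15843 promoters of protein-coding genes. *KMT2C* was at one end with 88.7%, above 99.97% of promoters and with 15 matches to GGGCGG. *RBBP5* with 49.3% and *WDR5* with 51.3% were at the other end and held no GGGCGG. These 3 genes had no WDR5 promoter peak with DMSO, and neither had *SETD1B*, whose promoter was not matched. *KMT2B*, with 83.3% and above 99.0% of promoters, had one in both libraries, at an internal start. A link between base composition and WDR5 peaks was not tested. GGGCGG was present in 5 of the 7 promoters, against 58.5% of all promoters, CCAAT in 1 against 36.4%, CACGTG in 1 against 8.88%, CCGGAA in 2 against 22.9%, and GCGCATGCG in 0 against 2.76%.

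At the peaks, motifs were counted in 300 bp around each summit. GGGCGG was present at 11 of the 39 WDR5 peaks with DMSO (28.2%, against 30.8% of the list) and at 10 of the 15 with MS67 (66.7%, against 42.2%). CACGTG was present at 3 of 39 and 2 of 15, against 6.10% and 6.42% of the lists. The intergenic site downstream of *WDR5*, printed above, was singled out after its values were seen, because it held 3 copies of CACGTG. Such a number was found at 10 of the 35605 WDR5 peaks with DMSO (0.0281%). The NRF1 match at *U2AF1L4* and *PSENEN* was the only match to that motif within 300 bp at the summits of member peaks, against 0.297% of SS18::SSX peaks. A match is a run of letters and not a measured site of these factors.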

How the data were processed

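Peak lists from CUT&RUN on HSSY II cells were analysed, with 1 library for each of SS18::SSX and WDR5 after 4 days of DMSO or 2.5 μM MS67. The authors mapped reads to hg38 and, for the spike-in, to the mouse genome with Bowtie2 (v.2.4.4), filtered them with Samtools (v.1.10) and Picard (v.2.18.2), and called peaks per library with MACS2 (v.2.2.6). A supplementary legend names −log10 q above 3 and fold above 3 (SS18::SSX) or 6 (WDR5) as a calling standard. The deposited lists also hold weaker peaks and were used whole, with that standard as an alternative. Other options and the control libraries of MACS2 are not given in the sources used here. Per the file headers, each deposited peak has a fold enrichment over local background, −log10 p, −log10 q, and a score, which is 10 times −log10 q cut to a whole number and was not used. Spike-in scaled signals were not analysed here.

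Summit fragments and local background were recovered from fold and −log10 p, which fitted whole fragments within 0.001 for 100% of peaks, a step tested on simulated data. Genes and starts were those of GENCODE 44, and the reference held every peak within its chromosomes. Sequences were read from hg38. The members and related gene lists were chosen with earlier results of these data known. All members were named, and other genes only where a peak of a window lay at or in them, with up to 5 per related list by −log10 q. Alternatives varied threshold, list length, window, promoter, merging, and overlap. Python 3.11.15, numpy 2.4.6, scipy 1.17.1, pandas 2.3.3, matplotlib 3.10.9, pysam 0.24.0, and samtools 1.23.1 were used.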

Additional observations from a re-analysis of the deposited data

How the results depend on the processing

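Of 90 comparisons of an alternative with a reported count, 45 stayed within 1.5 times of it and 45 did not, through fewer peaks, another window or promoter, or another overlap by construction. The 0 SS18::SSX peaks with MS67 held under every alternative run. Most alternatives only removed or merged peaks or narrowed the window or starts, so they could not raise this count. Those that could were the 50 kb window, the promoter reaching 1000 bp downstream, and any 1 bp of a peak in the promoter. The window around the canonical transcript and the fold threshold of 6 for WDR5 were added after the peaks were seen, and the former changed no count by more than 1.5 times (35 and 15 WDR5 peaks). No paired analysis was possible because each condition had 1 library.

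With −log10 q above 3 and fold above 3, WDR5 peaks with MS67 were 9, SS18::SSX peaks with DMSO were 1 (1 lost, 0 overlapping WDR5), and genes with an SS18::SSX promoter peak were 0. With fold above 6 for WDR5, the SS18::SSX counts were the same 1, 1, 0, and 0, WDR5 promoter peaks were left at 1 gene with DMSO and 0 with MS67, and WDR5 peaks were 8 (6 lost) and 2. With −log10 q above 5, WDR5 promoter peaks were left at 1 gene with DMSO and 0 with MS67, WDR5 peaks were 14 (12 lost) and 2, and SS18::SSX peaks were 0 in number, lost, overlapping, and at promoters. With each DMSO list reduced to the size of its MS67 list, 1 gene had a WDR5 promoter peak, against 3 with MS67, and WDR5 peaks were 14, of which 7 were lost, so the windows then held no more WDR5 peaks with DMSO than the 15 with MS67, and all 4 SS18::SSX counts were 0. With 1 start per gene, 0 genes had an SS18::SSX promoter peak. In gene bodies alone, WDR5 peaks were 17 (14 lost) and 6, and SS18::SSX peaks 2 (2 lost, 1 overlapping). With 50 kb, WDR5 peaks were 75 (58 lost) and 26, and SS18::SSX peaks 20 (20 lost, 10 overlapping). SS18::SSX peaks that overlapped WDR5 numbered 1 at an overlap of 50% and 6 within 1 kb. Most member promoter peaks were weak, so their number rests on the threshold.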
